A study of Mus musculus with 8 samples.

Results

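The ephrin, Slit-Robo and netrin systems are the contact and diffusible cues, with their receptors, that steer growing axons and sort cells during development. The 41 genes described here were taken by name: 9 EphA and 5 EphB receptors, 5 ephrin-A and 3 ephrin-B ligands, 3 Slit ligands, 4 Robo receptors, 4 secreted netrins, 2 netrin-G proteins and 6 netrin receptors (Dcc, Neo1 and 4 Unc5 genes). All 41 were among the 55414 Ensembl gene IDs listed in the count files and were chosen by family. That choice was made with earlier results of these data known. The material was dorsal root ganglia (DRG), the clusters of sensory neurons and glia beside the spinal cord, taken from E18.5 mouse embryos and read by bulk RNA-seq. The AD1 OE group (AdvillinCre/+;Rosa26Dach1/+, 4 libraries) carried Cre at the Advillin gene and, at Rosa26, a Dach1 copy that is transcribed with EGFP once Cre has removed a stop cassette. The Control group (Advillin+/+;Rosa26Dach1/+, 4 libraries) carried the same Rosa26Dach1 allele and no Cre. Dach1 encodes a transcriptional corepressor that most DRG neurons switch off as the embryo develops. The question put to these libraries was how transcripts differ at E18.5 where sensory neurons express it broadly.

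Several features limit the groups as a model. Advillin is active in sensory neurons, so the other cells of the ganglion were not targeted, and the Cre allele takes the place of 1 Advillin copy in AD1 OE only. A difference due to Dach1 therefore cannot be told apart from one due to Cre or to the loss of 1 Advillin copy. By the study's account Dach1 is first switched off as in Control embryos and then expressed broadly again, so its expression in AD1 OE neurons was not continuous. The mice were of mixed C57Bl/6J and CD1 background. Each group comprised 4 embryos for its 4 libraries, and whether they shared litters is not given in the sources used here.

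Eph receptors are receptor tyrosine kinases that bind ephrins on neighbouring cells, and both the receptor cell and the ephrin cell receive a signal. Slits are secreted proteins that repel or branch axons through Robo receptors, and in the DRG they are known for making sensory axons split as they enter the spinal cord. Netrins attract axons through Dcc and Neo1 and repel them through Unc5 receptors, while the netrin-G proteins are tethered to the membrane and bind other partners.

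Library totals ranged from 22339059 to 44025625 counts assigned to genes, and 17721 genes passed the filter on low counts. Values are given as CPM, read counts brought to a common library size. The mean of Dach1 (± SD, n = 4, as for every mean below) was 95.9 ± 5.28 CPM in AD1 OE against 32.6 ± 1.64 CPM in Control, and that of Avil, the gene of Advillin, was 463.6 ± 12.03 against 891.8 ± 35.1 CPM, in the directions that the genotypes give. Xist was present in AD1 OE replicate 3 and Control replicates 1 to 3, and transcripts of the Y chromosome in the other 4 libraries, so sex was unevenly spread over the groups. The summed level of 8 spinal cord markers lay between 2.74 and 6.01 CPM in 6 libraries and reached 23.4 CPM in Control replicate 1 and 12.8 CPM in Control replicate 4, and 7 of the 8 were detected in every library while Mnx1, a motor neuron gene, was at 0 in 6. Control replicate 1 also held the highest summed level of 6 sympathetic neuron markers, 14.6 CPM against 1.26 to 3.86 CPM in the other libraries.

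Most of the guidance genes differed little between the groups, 27 of 40 by a log2 fold change under 0.25 in size, and the clear differences were decreases of 3 receptors, each of another family. Of the 41 genes, 40 passed the filter, the lowest of them at 1.37 CPM in 1 library. Robo3, which lets commissural axons cross the midline, was left out with 2 to 17 counts per library. Unc5d, Robo2 and Ephb6 were called, all lower in AD1 OE, which here means an adjusted p below 0.005 together with a log2 fold change beyond 0.25 in size (edgeR quasi-likelihood test with Benjamini-Hochberg adjustment over all tested genes, as for every adjusted p below unless another tool is named). These 3 were 7.50% of the guidance genes tested, where 2.57% of all tested genes were called, 1.78% lower and 0.784% higher. Called higher were 0 of the guidance genes, by edgeR with the filter on low counts or by DESeq2, and 1, Epha8, by edgeR without that filter (adjusted p = 0.000593), while 3 of those with positive values (Epha1, Efna2 and Epha8) had an unadjusted p under 0.05 in edgeR. With the looser threshold of 0.05 for the adjusted p and no fold limit, 9 guidance genes (22.5%) passed, 8 lower and 1 higher, against 6.55% of all tested genes. The 4 libraries of each group did not overlap for 10 guidance genes (25.0%), 8 lower and 2 higher, against 13.0% of all tested genes. The median log2 fold change over the 40 genes was -0.03, with 17 positive and 23 negative values, and the median of all tested genes was 0.002. The median absolute log2 fold change was 0.145 for the guidance genes and 0.084 for all tested genes. By DESeq2 6 guidance genes were called, the same 3 with Slit1, Dcc and Epha5.

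**Figure D1:**
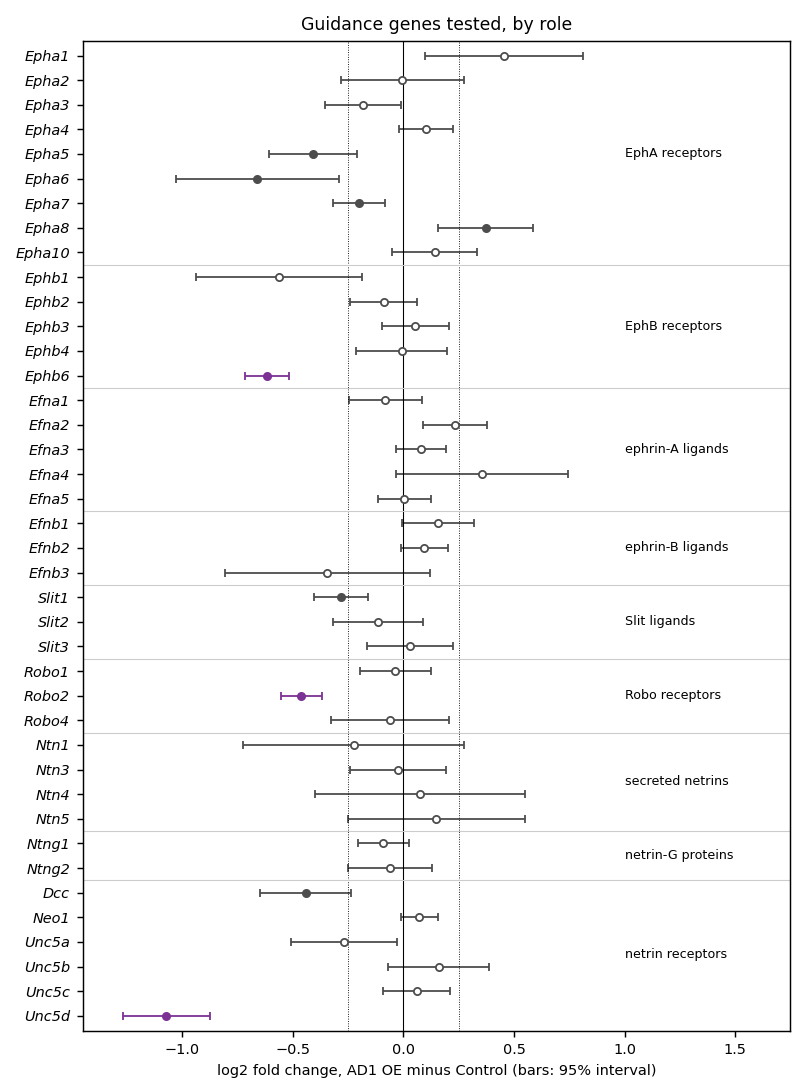
Log2 fold change of the 40 tested guidance genes (x axis, AD1 OE minus Control, edgeR) by role (y axis), where points are estimates from 4 libraries a group and bars are 95% intervals. Purple marks the 3 called genes, filled grey the other 6 genes at an adjusted p under 0.05, open circles the rest, and dotted lines the fold change limit of 0.25; Unc5d lies farthest to the left at -1.07.

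Levels were compared between genes as CPM per kilobase of merged exons, a scale on which the guidance genes spread widely in Control. Efnb1, an ephrin-B ligand, stood first at 23.3 ± 2.08 CPM per kilobase. Ephb6 followed at 16.6 ± 0.574 and Neo1 at 15.5 ± 0.656 CPM per kilobase, so that the second and the third differed by less than 2 SD. Robo3 stood last at 0.0332 ± 0.0113 CPM per kilobase. Unc5d, at 1.39 ± 0.0485 CPM per kilobase, and Dcc, at 0.606 ± 0.0688, belonged to the lower end of the order.

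Within the roles, the levels per kilobase in Control ran as follows. Among the EphA receptors Epha8 was highest at 4.74 CPM per kilobase, before Epha10 at 3.76 ± 0.272 and Epha4 at 3.63 ± 0.237, and the last 2 differed by less than their SD. Among the EphB receptors Ephb6 was followed by Ephb4 at 7.65 and Ephb3 at 5.48 CPM per kilobase. The ephrin-A ligands Efna1, Efna3 and Efna5 stood close together at 13.0, 11.5 and 10.2 CPM per kilobase, and after Efnb1 came Efnb3 at 12.2 ± 4.82 and Efnb2 at 11.5 ± 0.608, which overlapped. Slit1, at 10.8 CPM per kilobase, stood well above Slit2 at 2.65 and Slit3 at 2.06. Robo2 led the Robo receptors at 10.04 CPM per kilobase, and Robo4, the endothelial member of the family, at 3.53 ± 0.373 did not differ beyond its SD from Robo1 at 3.35 ± 0.348. Of the netrins, Ntn1 was at 6.19, Ntn3 at 5.05 and Ntn5 at 0.904 CPM per kilobase, and Ntng1 and Ntng2 were at 3.94 ± 0.138 and 3.80 ± 0.324. After Neo1, the netrin receptors Unc5b and Unc5c were at 4.21 and 1.52 CPM per kilobase. The length used matters for some of these ranks. With the longest transcript as the length, the highest gene stayed the same in 7 of the 9 roles, while Epha10 led the EphA receptors at 10.7 CPM per kilobase, Ntng2 passed Ntng1, and Robo2 stood second of all members at 19.8.

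**Figure D2:**
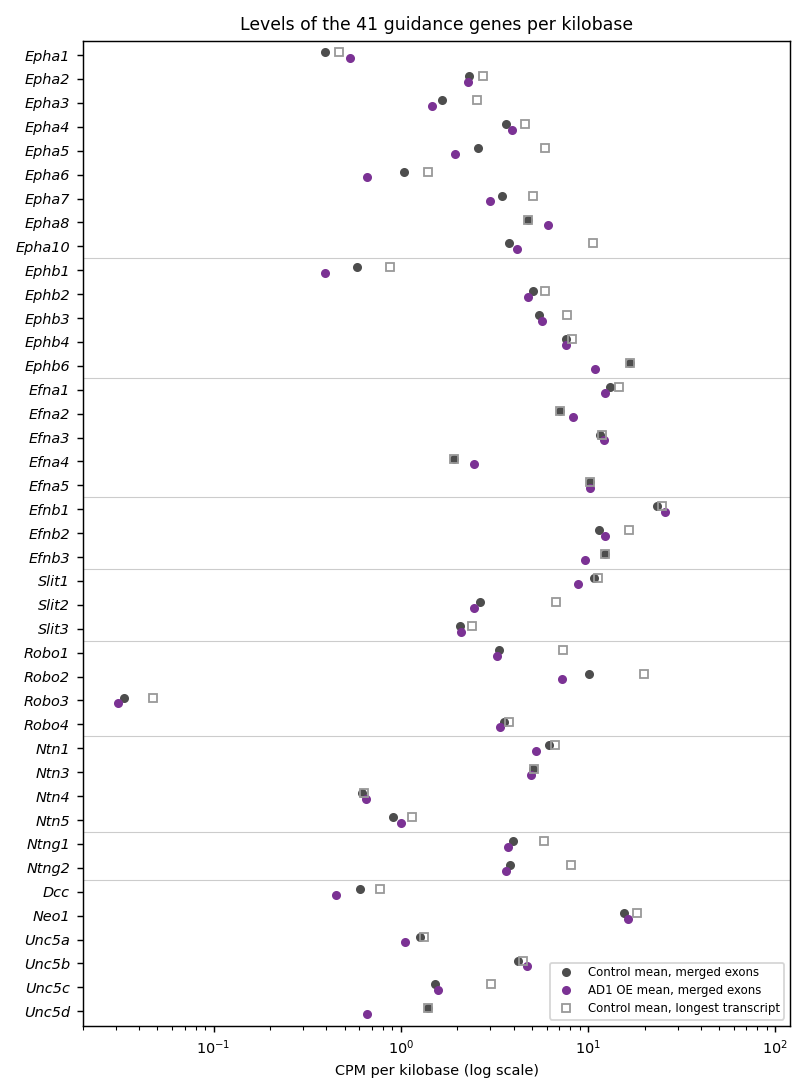
Level of each of the 41 guidance genes in CPM per kilobase (x axis, log scale), grouped by role (y axis), as group means over 4 libraries. Filled circles use merged exon length (grey Control, purple AD1 OE) and open squares show Control with the longest transcript; Efnb1 is farthest right and Robo3 farthest left by either length.

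Unc5d, a netrin receptor that also binds the membrane proteins of the Flrt family, showed the largest difference of the guidance genes. Unc5d (ENSMUSG00000063626, chromosome 8) was at 7.08, 5.88, 5.24 and 6.01 CPM in AD1 OE replicates 1 to 4 and at 12.6, 13.4, 12.9 and 12.4 CPM in Control replicates 1 to 4. The groups lay far apart, with every AD1 OE library below every Control library. The means were 6.05 ± 0.761 and 12.8 ± 0.448 CPM, AD1 OE stood at 47.2% of Control, and the log2 fold change was -1.07 (standard error 0.09, edgeR adjusted p = 1.85e-05). Between 132 and 438 reads per library lay behind these values. The ratio of Unc5d to Unc5c counts, a pair chosen after the values were seen, lay between 0.188 and 0.224 in AD1 OE and between 0.400 and 0.476 in Control.

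The other netrin receptors moved less. Dcc, the classical receptor for attraction to netrin-1, was at 5.52, 5.88, 6.12 and 6.05 CPM in AD1 OE and at 8.51, 7.32, 7.11 and 8.98 CPM in Control. Its groups did not overlap, and its log2 fold change of -0.44 (standard error 0.09, edgeR adjusted p = 0.0147) passed the looser threshold alone. Without the 2 Control libraries rich in spinal cord markers, which gave the highest Dcc values, the log2 fold change of Dcc was -0.29 (edgeR adjusted p = 0.192), and the part of these markers was not tested. Neo1, which binds netrins and the repulsive guidance molecules, averaged 142.1 ± 4.57 CPM in AD1 OE against 135.2 ± 5.72 CPM in Control, with a log2 fold change of 0.07 (95% interval -0.01 to 0.16). Unc5a, Unc5b and Unc5c had log2 fold changes of -0.27, 0.16 and 0.06, none past an adjusted p of 0.05. The interval for Unc5c ran from -0.09 to 0.21 and that for Unc5d from -1.27 to -0.88, although no test of the difference between them was made.

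The 4 secreted netrins and 2 netrin-G proteins gave no call, and 0 of the 6 had an unadjusted p under 0.05 (edgeR). Ntn1, the main secreted netrin of the nervous system, was at 37.5, 29.6, 39.6 and 25.8 CPM in AD1 OE and at 52.5, 27.5, 24.9 and 50.5 CPM in Control. The 2 high Control values belonged to replicates 1 and 4, the libraries with the highest spinal cord markers. The log2 fold change of Ntn1 was -0.22 with all libraries (edgeR adjusted p = 0.664) and 0.34 without these 2 (edgeR adjusted p = 0.363), so its sign rested on them. Summed over 4 floor plate markers, a spinal cord region known for Ntn1, the level was 8.88 to 10.1 CPM in Control and 7.37 to 8.74 CPM in AD1 OE. Foxa2, a defining floor plate gene, was at 0 in 2 libraries, and the part of carried-over spinal cord in Ntn1 was not tested. Ntn3, Ntn4, Ntn5, Ntng1 and Ntng2 had log2 fold changes between -0.09 and 0.15, and their groups overlapped. Part of the Ntn5 exons, 23.4%, lies opposite exons of Sec1 and 14.0% of the Ntng2 exon bases are shared with 6530402F18Rik on the same strand, so the counts of both are uncertain.

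Robo2, a Slit receptor and the most abundant Robo transcript here, was lower in AD1 OE. Robo2 (ENSMUSG00000052516, chromosome 16) was at 129.1, 124.0, 121.7 and 120.2 CPM in AD1 OE and at 157.4, 175.8, 176.5 and 172.1 CPM in Control. The lowest Control library still lay above the highest AD1 OE library. The means were 123.8 ± 3.90 and 170.4 ± 8.94 CPM, AD1 OE stood at 72.7% of Control, and the log2 fold change was -0.46 (standard error 0.04, edgeR adjusted p = 3.33e-05). Robo1, the other main neuronal Robo receptor, was at 53.9 ± 3.82 and 55.3 ± 5.75 CPM, a log2 fold change of -0.04 (95% interval -0.20 to 0.12). The ratio of Robo2 to Robo1 counts, again a pair chosen after the values were seen, was 2.22 to 2.42 in AD1 OE and 2.74 to 3.31 in Control. Robo4 overlapped between the groups with a log2 fold change of -0.06.

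RefSeq promoter windows on GRCm38.p6, the 250 bases before a start site, were at hand for 36 of the 41 genes, among them Ephb6 and Robo2 of the 3 called genes. They are shown because these are the start regions of genes that were lower together. Robo2 has 3 start sites in the table. Only for 1 of them was an inner stretch of the 50 bases that follow found in a GENCODE transcript. Its window, on the minus strand at chr16:74411826-74412075, reads as follows.
Robo2: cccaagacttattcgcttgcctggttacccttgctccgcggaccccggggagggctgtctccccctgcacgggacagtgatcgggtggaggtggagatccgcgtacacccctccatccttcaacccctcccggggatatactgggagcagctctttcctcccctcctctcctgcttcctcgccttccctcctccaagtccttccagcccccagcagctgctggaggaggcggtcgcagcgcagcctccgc
This window holds 14 CpG dinucleotides and 65.6% GC, where the median of 32851 mouse promoter windows was 6 CpG and 52.4% GC. The GC box was searched for on both strands as GGGCGG. The CCAAT box was searched for by the letters of its name, and the TATA box as TATAAA. None of the 3 motifs was found in any of the 3 Robo2 windows, while 32.7%, 33.8% and 12.4% of all windows hold them, in that order.

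Among the Slits, Slit1 was at 49.4, 49.5, 57.6 and 53.0 CPM in AD1 OE and at 66.1, 64.1, 59.7 and 65.2 CPM in Control. The groups did not overlap but came within a few CPM of each other. The log2 fold change of Slit1 was -0.28 (standard error 0.06, edgeR adjusted p = 0.00897), short of the call threshold by p alone, and Slit1 was called without AD1 OE replicate 3 (edgeR adjusted p = 0.00222). Slit2 spread from 53.9 to 79.6 CPM within Control, with both ends in the libraries rich in spinal cord markers, and its log2 fold change was -0.11 (edgeR adjusted p = 0.563). Slit3 had a log2 fold change of 0.03.

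Ephb6, an Eph receptor that lacks kinase activity, was the member with the lowest adjusted p. Ephb6 (ENSMUSG00000029869, chromosome 6) was at 41.03, 38.6, 41.4 and 42.5 CPM in AD1 OE and at 60.4, 62.4, 65.7 and 62.6 CPM in Control. Both groups were tight and lay well apart. The means were 40.9 ± 1.62 and 62.8 ± 2.17 CPM, AD1 OE stood at 65.1% of Control, and the log2 fold change was -0.62 (standard error 0.045, edgeR adjusted p = 6.39e-06). On the plus strand of GRCm38.p6 the Ephb6 window before the start site covers chr6:41605261-41605510, of which the stretch chr6:41605261-41605481, up to the first annotated exon base, reads as follows, with GC boxes on either strand in capitals.
Ephb6: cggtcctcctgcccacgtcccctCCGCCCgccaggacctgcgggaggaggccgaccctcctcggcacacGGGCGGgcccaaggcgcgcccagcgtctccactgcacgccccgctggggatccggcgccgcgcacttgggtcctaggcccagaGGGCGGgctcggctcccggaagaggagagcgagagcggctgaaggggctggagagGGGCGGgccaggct
The printed stretch holds 4 GC boxes and no CCAAT or TATA box, and the whole window has 27 CpG dinucleotides and 76.8% GC. Unc5d had no entry in the table.

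Of the kinase-active EphB receptors, none was called. Ephb2 averaged 60.4 ± 4.20 CPM in AD1 OE against 64.4 ± 6.08 CPM in Control, a log2 fold change of -0.09 (95% interval -0.24 to 0.06). The ratio of Ephb6 to Ephb2 counts, a pair also chosen after the values were seen, was 0.631 to 0.752 in AD1 OE and 0.846 to 1.11 in Control. Ephb3 and Ephb4 had log2 fold changes of 0.05 and -0.01. Ephb1 was at 2.89, 2.85, 2.64 and 2.56 CPM in AD1 OE and at 5.67, 3.80, 2.99 and 3.84 CPM in Control. Its groups did not overlap, but Control replicate 1 stood high and the log2 fold change of -0.56 missed the looser threshold (edgeR adjusted p = 0.0857). Without the 2 Control libraries rich in spinal cord markers it was -0.31 (edgeR adjusted p = 0.427).

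The EphA receptors, which bind the lipid-anchored ephrin-A ligands, gave no call, while 3 passed the looser threshold downwards and 1 upwards. Epha5 was at 33.9, 32.4, 34.6 and 28.8 CPM in AD1 OE and at 52.3, 40.02, 39.8 and 40.4 CPM in Control, with Control replicate 1 far above the rest. Its log2 fold change was -0.41 (edgeR adjusted p = 0.0192), and -0.30 without that library (edgeR adjusted p = 0.0173). Epha7 was at 30.3, 31.5, 27.04 and 30.1 CPM in AD1 OE and at 34.7, 33.3, 33.8 and 34.7 CPM in Control, a small difference without overlap (log2 fold change -0.20, edgeR adjusted p = 0.0494). These 2 genes stood lower in every AD1 OE library than in any Control library.

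Epha6 was at 3.78, 3.92, 2.68 and 3.60 CPM in AD1 OE and at 3.83, 6.17, 5.42 and 6.55 CPM in Control. Its groups overlapped through Control replicate 1, and its log2 fold change was -0.66 (standard error 0.17, edgeR adjusted p = 0.0376). Epha8 was the 1 guidance gene that passed the looser threshold upwards. Its libraries were at 34.4, 25.3, 28.5 and 27.4 CPM in AD1 OE and at 21.4, 21.5, 20.6 and 25.9 CPM in Control, which overlapped, with a log2 fold change of 0.37 (edgeR adjusted p = 0.0459). Epha1 was at 2.17, 2.58, 1.760 and 1.87 CPM in AD1 OE and at 1.755, 1.37, 1.61 and 1.41 CPM in Control. Its groups were narrowly separated, its log2 fold change of 0.45 did not pass (edgeR adjusted p = 0.149), and a small part of its exons lies opposite exons of Zyx. Epha2, Epha3, Epha4 and Epha10 had log2 fold changes between -0.18 and 0.14, none past an adjusted p of 0.05.

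Among the 8 ephrin ligands none was called, and 1, Efna2, had an unadjusted p under 0.05 (edgeR). Efna2 was at 18.7, 16.6, 19.1 and 16.3 CPM in AD1 OE and at 15.1, 14.6, 15.3 and 15.4 CPM in Control. All AD1 OE values of Efna2 lay above Control, and its log2 fold change was 0.23 (edgeR adjusted p = 0.0631). Efna1, Efna3, Efna4 and Efna5 had log2 fold changes of -0.08, 0.08, 0.36 and 0.00, and Efna3 and Efna4 share 14.1% and 10.5% of their exon bases with genes on the other strand. Efnb1 was at 89.3 ± 8.76 and 80.3 ± 7.18 CPM and Efnb2 at 84.1 ± 4.41 and 78.8 ± 4.17 CPM in AD1 OE and Control, differences that did not pass (edgeR adjusted p = 0.296 and 0.336).

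Efnb3, an ephrin-B known as a midline barrier in the spinal cord, was at 31.6, 28.4, 35.0 and 28.0 CPM in AD1 OE and at 42.3, 28.0, 26.2 and 59.3 CPM in Control. Its Control values split as those of Ntn1 did, with the high values in replicates 1 and 4. The log2 fold change was -0.34 with all libraries (edgeR adjusted p = 0.433) and 0.19 without these 2 (edgeR adjusted p = 0.441). Unc5d, Robo2 and Ephb6 did not share this split. Without the same 2 Control libraries their log2 fold changes were -1.11, -0.51 and -0.64 (edgeR adjusted p = 0.000469, 0.000116 and 0.000157). Of the 6 other genes at the looser threshold, Epha6 stayed under 0.05 with 2 Control libraries left (edgeR adjusted p = 0.0316), and Epha5, Epha7, Epha8, Slit1 and Dcc did not (edgeR adjusted p between 0.0584 and 0.326). This choice of libraries was made after the data had been seen. It left Control replicates 2 and 3, both with Xist. Of the AD1 OE libraries, replicates 1, 2 and 4 had Y-linked transcripts and replicate 3 had Xist. Sex was thus more uneven in every fit without these 2 Control libraries.

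**Figure D3:**
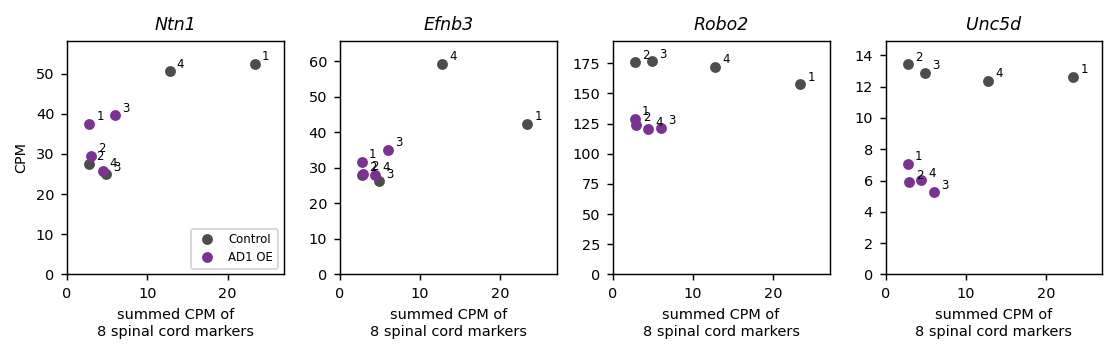
Level of Ntn1, Efnb3, Robo2 and Unc5d in CPM (y axes, from 0) against the summed CPM of 8 spinal cord markers (x axes) in the 8 libraries, numbered by replicate (grey Control, purple AD1 OE). Ntn1 and Efnb3 are highest in Control replicates 4 and 1, the libraries with the most spinal cord markers, whereas the groups of Robo2 and Unc5d do not overlap in any library.

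**Figure D4:**
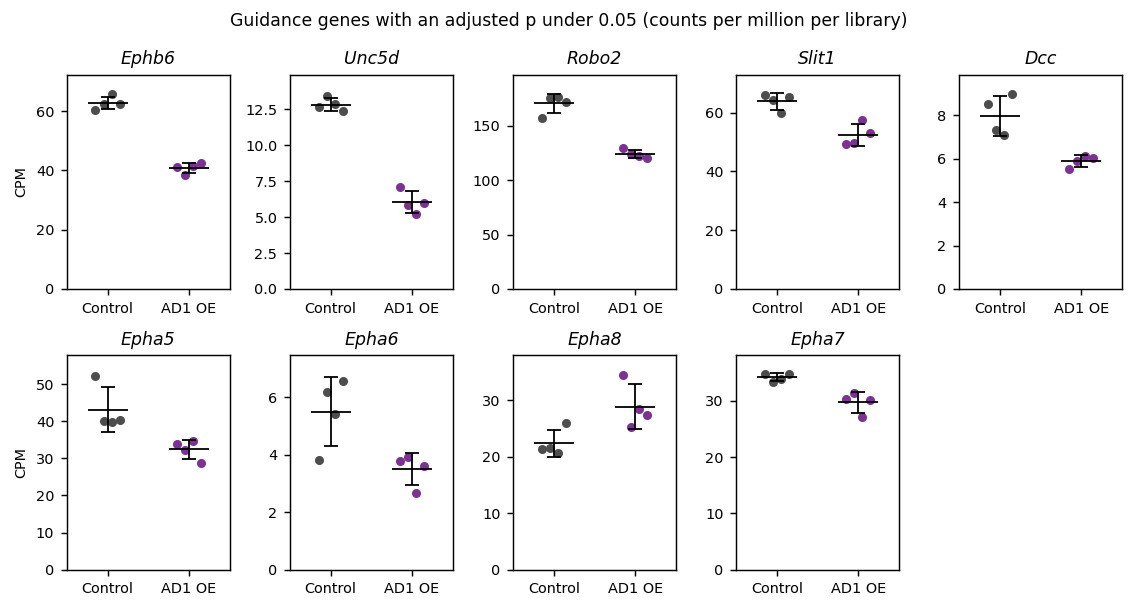
Level in CPM (y axes, from 0) of the 9 guidance genes with an adjusted p under 0.05 in each library, with horizontal lines at the mean and bars of 1 SD over 4 libraries a group. The groups stand apart for Ephb6, Unc5d, Robo2, Slit1, Dcc, Epha5 and Epha7 and overlap for Epha6 and Epha8.

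Since sex was unevenly spread, the groups were also read within each sex. Within the libraries with Xist (1 AD1 OE, 3 Control), the log2 differences were -1.29 for Unc5d, -0.48 for Robo2 and -0.60 for Ephb6. Within those with Y-linked transcripts (3 AD1 OE, 1 Control), they were -0.96, -0.47 and -0.62. The values of the pair of ligands that split within Control were 0.26 and -0.72 for Ntn1 and 0.15 and -1.01 for Efnb3, of opposite sign in the libraries with Xist and with Y-linked transcripts. The 1 Control library with Y-linked transcripts was replicate 4, which was rich in spinal cord markers. Control replicate 1, also rich in these markers, carried Xist, as did Control replicates 2 and 3. Ntn1 was at 52.5 CPM in replicate 1 against 27.5 and 24.9 CPM in replicates 2 and 3. Efnb3 was at 42.3 CPM against 28.0 and 26.2 CPM. In AD1 OE replicates 1, 2 and 4, with Y-linked transcripts, Ntn1 was at 25.8 to 37.5 and Efnb3 at 28.0 to 31.6 CPM. The part of sex and that of the spinal cord markers in these ligands were not tested. With 1 library on 1 side, no test within a sex was made. With the sex score as a covariate, the adjusted p of Epha5 was 0.1 and that of Epha8 0.199 (edgeR), above the looser threshold, while Unc5d, Robo2 and Ephb6 were called.

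Markers of nociceptors, the neurons for pain, were lower in AD1 OE as well. The summed level of 8 nociceptor markers was 2600 to 2786 CPM in AD1 OE and 3314 to 3636 CPM in Control, and 4 of the 8 were called, all lower: Scn10a, Calca, Tac1 and Mrgprd with log2 fold changes of -0.83, -0.70, -0.88 and -0.77 (edgeR adjusted p of 0.000197 at most). In whole ganglia, fewer cells of a type and less RNA per cell cannot be told apart, and the part of these markers in the guidance genes was not tested. The summed level of 8 pan-neuronal markers was 6283 to 6633 CPM in AD1 OE and 6436 to 6780 CPM in Control, with 0 of 8 called (3 at an unadjusted p under 0.05 in edgeR). That of 9 Schwann and satellite glia markers was 1306 to 1628 and 1329 to 1617 CPM, with 0 of 9 called (2 at an unadjusted p under 0.05 in edgeR). The summed level of 7 markers of low-threshold mechanoreceptors was 2428 to 2499 CPM in AD1 OE and 2268 to 2550 CPM in Control. Of these, 3 were called lower (Mafa, Shox2 and Gfra2), and Piezo2 passed the looser threshold upwards (log2 fold change 0.21, edgeR adjusted p = 0.0343). That of 6 proprioceptor markers was 548.6 to 666.0 CPM in AD1 OE and 539.4 to 667.1 CPM in Control, with 1 called lower (Etv1) and, at the looser threshold, 2 lower and 1 higher. The groups thus overlapped in both sums. All markers of the neuronal and glial lists were detected in every library.

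The partners of these systems were read from a list of 45 genes, all of which passed the filter. The list was chosen with earlier results of these data known, so the shares below may reflect that choice. Of these, 4 (8.89%) were called, 2 higher and 2 lower, against 2.57% of all tested genes (0.784% higher and 1.78% lower). At an adjusted p under 0.05 were 9 of the 45, 4 higher and 5 lower, against 6.55% of all tested genes. The median log2 fold change over the 45 genes was -0.01. Draxin, a secreted repellent that binds Dcc and netrin-1, differed most. Its libraries were at 57.7, 52.0, 59.7 and 47.9 CPM in AD1 OE and at 31.3, 29.0, 24.3 and 28.3 CPM in Control, the former all above the latter. The log2 fold change of Draxin was 0.95 (standard error 0.08, edgeR adjusted p = 2.97e-05). Its level thus differed in the opposite direction to that of Unc5d and Dcc.

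The Eph and ephrin partners held a call in each direction. Grip2, a PDZ adaptor for ephrin-B ligands, was at 27.3, 25.4, 32.7 and 29.9 CPM in AD1 OE and at 19.98, 20.7, 23.2 and 19.7 CPM in Control (log2 fold change 0.46, edgeR adjusted p = 0.00467). Rgs3, which links ephrin-B ligands to G protein signalling, was at 29.9, 29.1, 29.0 and 28.7 CPM in AD1 OE and at 36.2, 37.6, 36.4 and 37.4 CPM in Control (log2 fold change -0.34, edgeR adjusted p = 0.000426). Neither gene overlapped between the groups, and Rgs3 varied little among its replicates. Without the 2 Control libraries rich in spinal cord markers, the adjusted p of Rgs3 was 0.00849 and that of Grip2 0.0746 (edgeR), and Draxin was the 1 partner gene still called. The call of Grip2 sat near the threshold and was lost without any 1 of AD1 OE replicates 1, 3 and 4 or Control replicates 1, 2 and 4 (edgeR adjusted p up to 0.0184). Rasa1, a Ras GTPase-activating protein, was higher with a log2 fold change of 0.18 and Vav3, a guanine nucleotide exchange factor, lower with -0.22, both at the looser threshold (edgeR adjusted p = 0.0102 and 0.0330).

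Lrrc4c, the netrin-G1 ligand, was at 26.8, 27, 26.6 and 25.7 CPM in AD1 OE and at 34.6, 32.3, 32.5 and 31.8 CPM in Control (log2 fold change -0.30, edgeR adjusted p = 0.00209). Its groups lay apart, yet leaving out any 1 library raised its adjusted p above 0.005 (edgeR, up to 0.0112), as did the sex score (edgeR adjusted p = 0.0133). Sdc3, a heparan sulphate proteoglycan of neurons, was lower by a log2 fold change of -0.23 (edgeR adjusted p = 0.00311), under the limit on the fold change. Trim9, a ubiquitin ligase that binds Dcc, was lower (log2 fold change -0.38, edgeR adjusted p = 0.00819), and Flrt3, a ligand of Unc5 receptors, was higher (log2 fold change 0.32, edgeR adjusted p = 0.0184), both at the looser threshold. The other 36 partners did not pass an adjusted p of 0.05.

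**Figure D5:**
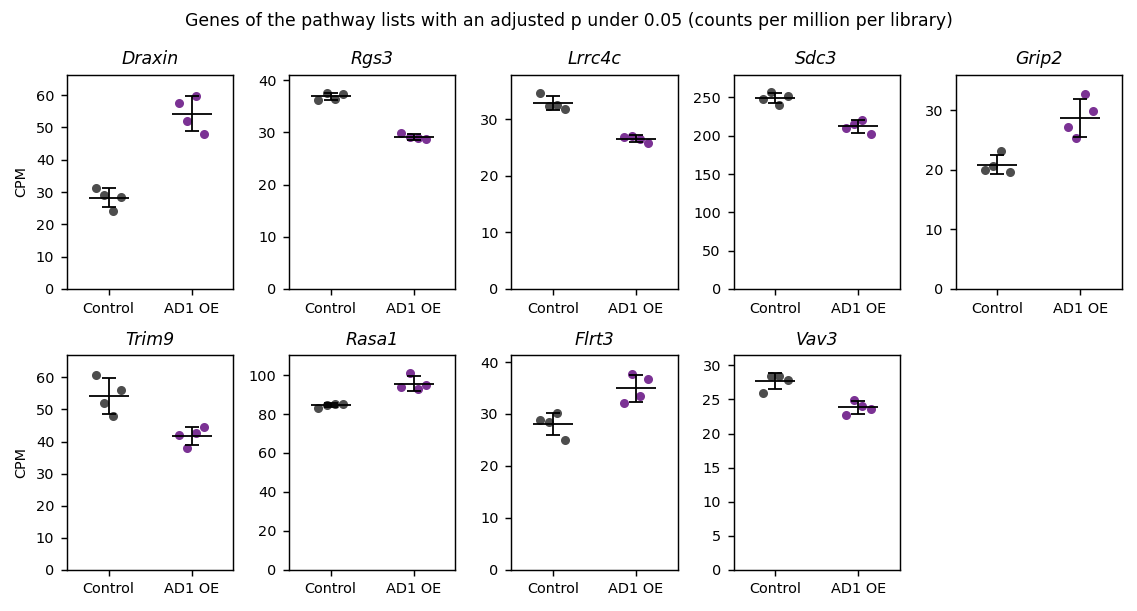
Level in CPM (y axes, from 0) of the 9 partner genes with an adjusted p under 0.05 in each library, with lines at the mean and bars of 1 SD over 4 libraries a group. Draxin stands at 47.9 CPM or more in every AD1 OE library and at 31.3 CPM or less in every Control library.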

How the data were processed

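Dorsal root ganglia of E18.5 embryos were profiled with a stranded poly(A) kit. Per the labels and the study's methods, the authors made FASTQ files with bcl2fastq 2.20.0.422, aligned reads to GRCm39 with STAR 2.7.8a and used featureCounts 2.0.1 to count reads per Ensembl gene. They deposited raw counts for each library, neither scaled nor filtered. Whether counting used the strand is not given in the sources used here, so genes with antisense partners are uncertain. Reads carried no molecular identifiers.

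Libraries were grouped by title and genotype. Counts were tested in R 4.3.3 with edgeR 4.0.16 (filterByExpr, TMM scaling, quasi-likelihood F test, genotype as the only term, Benjamini-Hochberg adjustment over 17721 genes, common biological coefficient of variation 8.22%). The thresholds were those of the study, 0.005 for the adjusted p and 0.25 for the size of the log2 fold change. CPM came from TMM-scaled totals, and means are over 4 libraries. All replicate pairs differed by more than counting noise (chi-square per degree of freedom 4.37 to 12.1). Names (52081 IDs), exon lengths and overlaps came from GENCODE M21 on GRCm38, another build than that of the counts, so no gene coordinates are given beside those of the promoter table. Of the counted lines, 0 named no gene. Alternatives were DESeq2 1.42.0, limma-voom (limma 3.58.1), other scalings, filters and thresholds, a replicate block, a sex score (log2 ratio of 4 Y-linked genes to Xist) and leaving out libraries. The tests were checked on simulated counts. The members, partner lists and marker lists were chosen with earlier results of these data known. Values are given per library for members that were called, that had an adjusted p under 0.05 or that did not overlap. Up to 3 of the highest members of each role are given with their mean level per kilobase. Of the partner genes, those with an adjusted p under 0.05 are named, up to 10. Of the lists not mentioned in the results, the summed levels in AD1 OE and Control were 5803 to 6569 and 4969 to 6087 CPM for 7 fibroblast, 300.0 to 352.3 and 312.6 to 321.5 for 7 endothelial, 94.2 to 517.3 and 117.4 to 312.3 for 6 muscle, 235.4 to 804.4 and 223.5 to 390.0 for 6 erythroid and 97.4 to 117.5 and 108.4 to 120.2 for 6 macrophage markers, with 0 called by edgeR and 4, 0, 0, 0 and 1 at an unadjusted p under 0.05.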

Additional observations from a re-analysis of the deposited data

Results flagged for a closer look

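A library far from the other 3 was looked for in 92 groups of 4 libraries (Dixon's test at the 95% level). It was found in 4 groups, no more than the share of about 1 in 20 that chance gives. Epha5 in Control replicate 1 was at 52.3 CPM against 39.8 to 40.4 CPM in the other Control libraries (ratio of gap to range 0.95). Epha8 in Control replicate 4 was at 25.9 CPM against 20.6 to 21.5 CPM (0.843), and without it the log2 fold change of Epha8 was 0.46 (edgeR adjusted p = 0.0188). Efna4 in AD1 OE replicate 4 was at 2.73 CPM against 4.19 to 4.48 CPM (0.835), and without it the log2 fold change was 0.50 (edgeR adjusted p = 0.0956). Unc5c in AD1 OE replicate 3 was at 26.6 CPM against 31.4 to 31.8 CPM (0.923), and without it the log2 fold change was 0.12 (edgeR adjusted p = 0.249).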

How the results depend on the processing

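Unc5d, Robo2, Ephb6 and Draxin were called in each of 17 refits (edgeR adjusted p from the other scalings, filters, covariates and library sets, and those of limma-voom and DESeq2, up to 0.000469, 0.000551, 0.000157 and 0.000374), Rgs3 in 16 (0.00849 without the 2 Control libraries rich in spinal cord markers), Grip2 in 10 and Lrrc4c in 6. Of 760 values of members under 19 settings, 744 kept their side of the threshold and 14 were newly called. Another 2 were lost (Ephb6 and Robo2 where an absolute log2 fold change over 1 was required). While 0 called values changed direction, uncalled ones could change sign, as the log2 fold change of Ntn1 did (-0.38 to 0.34 over the refits). The counts of guidance genes, partner genes and all genes called were 3, 4 and 455. They were 6, 6 and 658 by DESeq2, 7 (6 lower, and Epha8 higher), 6 and 747 without the expression filter, 9, 9 and 1161 at an adjusted p under 0.05, and 1, 0 and 129 when an absolute log2 fold change over 1 was added. Leaving out 1 library gave 3 to 4, 2 to 4 and 289 to 420, the lowest without AD1 OE replicate 1. Leaving out the 2 Control libraries rich in spinal cord markers, chosen after the data had been seen, gave 3, 1 and 254. The Control libraries left in that fit all had Xist. The cause of these shifts was not tested, beside the fewer libraries or other thresholds themselves. The replicate numbers did not pair the libraries (correlations of same-numbered deviations -0.01, -0.05, -0.04 and 0.31, and only replicates 4 correlated best with each other), and with the replicate block 3, 3 and 348 genes were called. Low counts limit Robo3, which was not tested.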
